A study of Arabidopsis thaliana with 2 samples.

Results

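SOG1 ChIP-seq peaks for which the submitters named 3 or more genes are described here. The peak list has 1 line per peak and gene. Its lines were collapsed to unique chromosome, start and end, and a peak was kept if at least 3 of its lines carried a transcript. This left 242 of 778 peaks (31.1%, exact 95% interval 27.9 to 34.5), and the other 536 named fewer genes. The number of genes, and no measured value, chose the peaks. The rule that tied genes to peaks is not given, so the number of genes named depends on that rule as well as on how densely genes lie. ChIP-seq measures which stretches of DNA are recovered with a protein. Here the protein was SOG1 fused to a Myc tag, expressed from the SOG1 promoter (ProSOG1:SOG1-Myc) in otherwise wild-type Arabidopsis thaliana Col-0. Whole plants 2 weeks old, kept in liquid medium in constant light, received 15 µM zeocin for 2 h before precipitation with an anti-Myc antibody (clone 4A6). The comparison library of the series came from untagged Col-0 plants of the same age. It is labelled mock, although its treatment protocol speaks of zeocin, and its values were not analysed here. The labels give no knockout of SOG1 in the tagged plants, so untagged SOG1 may be present beside the fusion.

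Kinases of the DNA damage checkpoint activate SOG1 (SUPPRESSOR OF GAMMA RESPONSE 1), a plant regulator of the NAC family, after breaks in DNA. It is known to activate genes of DNA repair, of cell cycle arrest and of further transcription control. Zeocin is a drug that breaks both DNA strands. The Arabidopsis genome is compact, so a binding position often has several genes near it, and a gene list made from peak positions may then hold neighbours that the factor does not control. Tandem families, in which copies of a gene lie side by side, add members of 1 family to such a list.

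Each group had 1 library, so no value has a replicate error and no test between conditions was possible. Reads inside the 778 peaks summed to 78249, of which peaks with 3 or more genes held 26464, or 33.8% of the reads over 32.0% of the summed length. The total depth of the library is unknown. Intervals given for shares (Clopper-Pearson) and for medians (order statistics) describe the spread over peaks of this list only. They do not cover the spread between plants or libraries.

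Peaks with 3 or more genes were close to the other peaks in strength. Their fold enrichment, a ratio that the submitters give for each peak over a background they do not state, had a median of 4.25 (interval 4.07 to 4.43) and a range of 2.52 to 23.0, against a median of 4.43 (4.25 to 4.46) and a range of 2.49 to 17.8 at peaks with fewer genes. A fold enrichment of 5 or more was listed for 65 of 242 peaks with 3 or more genes (26.9%, 21.4 to 32.9) and for 151 of 536 peaks with fewer (28.2%, 24.4 to 32.2), where 27.8% of all peaks passed this value. Just inside the threshold of the rule, the 176 peaks with 3 genes had a median of 4.22-fold. Just outside it, the 302 peaks with 2 genes had one of 4.39-fold. The 53 peaks with 4 genes had a median of 4.25-fold, and the 11 with 5 genes one of 4.54-fold. The plot of fold enrichment by number of genes shows no steady change with the number.

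**Figure D1:**
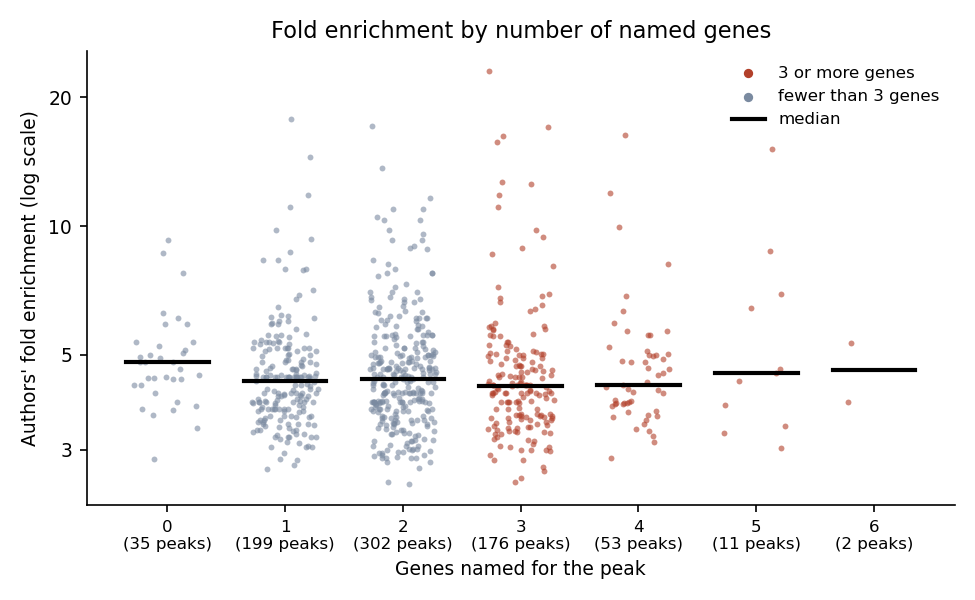
Fold enrichment (log axis) of every peak, grouped by the number of genes named for it from 0 to 6, with black bars for medians. The medians of the groups with 2, 3 and 4 genes lie at 4.39, 4.22 and 4.25, and the highest point, at 23.0, names 3 genes.

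Peaks with 3 or more genes, 31.1% of the list, made up 6 of the 10 peaks of highest fold enrichment (60%, 26.2 to 87.8), 12 of the top 25 (48%, 27.8 to 68.7) and 19 of the top 50 (38%, 24.7 to 52.8). They were 31 of the top 102 (30.4%) and 58 of the top 201 (28.9%), ties included. The intervals for the top 10, 25 and 50 by fold enrichment all include the share over the whole list. A fold enrichment of 10 or more was listed for 11 of 242 of them (4.55%, 2.29 to 7.99) and for 12 of 536 peaks with fewer genes (2.24%, 1.16 to 3.88), where 2.96% of all peaks passed it. These intervals overlap. Ranked by reads, 7 of the top 10 peaks named 3 or more genes, as did 7 of the top 10 by Decibel Score, a score of unstated formula. Both intervals (70%, 34.8 to 93.3) lie above the 31.1% of the whole list. So does that of the top 50 by Decibel Score, with 24 such peaks (48%, 33.7 to 62.6). In both rankings the top 25 held 12 (48%, 27.8 to 68.7), and the top 50 by reads held 22 (44%). The intervals of these, and of the top 100 in both rankings, include 31.1%.

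Listed genes of the DNA damage response were named at 7 of the 11 peaks of 10-fold or more that name 3 or more genes. They were named at 3 of the 6 in the top 10 by fold enrichment and at 3 of the 7 in the top 10 by reads. Among peaks with fewer genes, listed genes were named at 5 of the 12 of 10-fold or more. The peaks with fewer genes in the top 10 by fold enrichment, at ranks 2, 3, 9 and 10, all named one: BRCA1, NAC085, RPA70C and ATRAD17. Over the whole list, listed genes were named at 12 of 242 peaks with 3 or more genes and at 13 of 536 with fewer. Across 6 lists with 62 genes of repair, checkpoint, replication, kinase inhibition and transcription control, 23 genes were named anywhere. Of these, 12 were named at 12 peaks with 3 or more genes, and 12 at 13 peaks with fewer, with XRI1 in both classes. The 12 peaks with 3 or more genes had a median of 11.4-fold (6.92 to 15.7), 283.5 reads and 1507.5 bp. The 13 peaks with fewer genes had a median of 7.32-fold (4.39 to 14.5). The other 230 peaks with 3 or more genes had a median of 4.16-fold (4.06 to 4.31), 78.5 reads and 852 bp. Once the listed genes' peaks were set aside, 4 of 230 peaks with 3 or more genes (1.74%, 0.476 to 4.39) and 7 of 523 with fewer (1.34%, 0.540 to 2.74) reached 10-fold. The lists were drawn up with earlier results of these data known, so this contrast is a description.

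Repair genes came first. COM1 (AT3G52115, GR1 in the gene table), which helps to trim the ends of broken DNA, was the middle gene of the strongest peak of the whole list, on chromosome 3 at 19325437 to 19326806, with 23.0-fold enrichment and 369 reads over 1370 bp. AT3G52110 and AT3G52120 flank it, and both were named again at a second peak of 4.30-fold, 1386 bp further on. XRI1 (AT5G48720), a gene induced by X-rays that also acts in meiosis, stood between AT5G48710 and AT5G48730 at a 15.7-fold peak with 257 reads on chromosome 5, 19758429 to 19759761. Of the 17 genes on the recombination and break repair list, 8 were named, 2 of them at peaks with 3 or more genes.

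Both poly(ADP-ribose) polymerases on the lists, enzymes that sense DNA breaks and mark nearby proteins with ADP-ribose chains, were at such peaks. PARP2 (AT4G02390) shared a 17.1-fold peak of 334 reads on chromosome 4, 1049120 to 1050765, with SAG21 (AT4G02380), a small stress-induced protein of mitochondria, and AT4G02400. PARP1 (AT2G31320) shared a 9.79-fold peak of 303 reads on chromosome 2, 13359020 to 13361035, with AT2G31335 and EMB1381 (AT2G31340). The peak list itself uses these symbols the other way round, and those of the gene table are followed. The remaining 4 genes of the end joining and polymerase list, which include the KU proteins and DNA ligase IV, were not named at any peak.

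The CDK inhibitor and checkpoint genes of the lists that were named at peaks with 3 or more genes had 6.92-fold enrichment and above. They were 3 of the 4 named among 16 CDK inhibitors and 1 of the 2 named among 7 checkpoint genes. KRP6 (AT3G19150) and the SIAMESE-RELATED proteins SMR7 (AT3G27630) and SMR5 (AT1G07500) inhibit cyclin-dependent kinases. KRP6 was named at a 12.7-fold peak with 414 reads over 2539 bp on chromosome 3, 6615793 to 6618332, with RBP47B (AT3G19130), an RNA-binding protein, and DNF (AT3G19140), a regulator of flowering time. SMR7 was named at an 11.9-fold peak with 466 reads on chromosome 3, 10230227 to 10232434, with AOX1C (AT3G27620), an alternative oxidase of mitochondria, AT3G27610 and AT3G27640. SMR5 was named at a 6.92-fold peak with 264 reads on chromosome 1, 2304001 to 2305661, between RTFL3 (AT1G07490) and FTSH10 (AT1G07510), a mitochondrial protease. WEE1 (AT1G02970), a kinase that holds back the cell cycle when replication is disturbed, was named with 3 other genes, among them CUL2 (AT1G02980), at a 9.93-fold peak with 238 reads on chromosome 1, 672560 to 673756.

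Replication genes and transcription regulators covered a wide range of strength. Peaks with 3 or more genes held 2 of the 3 named among 7 replication genes and 2 of the 4 named among 9 transcription regulators. TSO2 (AT3G27060), a small subunit of the ribonucleotide reductase that makes DNA building blocks, was named with AT3G27040 and AT3G27050 at an 11.1-fold peak on chromosome 3, 9979362 to 9981857. Its 572 reads were the most at any peak with 3 or more genes. CDC45 (AT3G25100), a part of the replicative helicase, was named at a 4.25-fold peak of 530 bp on chromosome 3, 9143581 to 9144110, whose 43 reads were the fewest. ANAC044 (AT3G01600, NAC044 in the gene table), a NAC factor related to SOG1, was named with AT3G01580 and CDC48C (AT3G01610), an AAA-type ATPase, at an 11.8-fold peak with 208 reads on chromosome 3, 228614 to 229656. RBR1 (AT3G12280), the plant retinoblastoma protein that restrains entry into S phase, was named at a 4.64-fold peak with 86 reads on chromosome 3, 3923181 to 3923967. The RBR1 and CDC45 peaks were the only ones of the 12 under 5-fold.

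Strong peaks without a listed gene were few. A fold enrichment of 10 or more was reached by 4 of them. On chromosome 1, 22293211 to 22294280, a 16.3-fold peak with 213 reads named DRP4C (AT1G60500), of the dynamin-related GTPases that act in membrane division, DRP4D (AT1G60510) and AT1G60520, both transcribed pseudogenes in the gene table, and VPS34 (AT1G60490), a lipid kinase of vacuolar sorting. On chromosome 2, 7917002 to 7919947, a 16.3-fold peak with 506 reads named AT2G18180, AT2G18190 and AT2G18193. On chromosome 5, 2405292 to 2407943, a 15.2-fold peak with 448 reads named 5 loci from AT5G07590 to AT5G07630, of which AT5G07625 is a tRNA gene. On chromosome 5, 9515182 to 9516131, a 12.6-fold peak with 173 reads named TPR3 (AT5G27030), a corepressor of the TOPLESS family, the pseudogene AT5G27037 and AGL101 (AT5G27050), a MADS-box factor. The next in order were a 9.43-fold peak at AT5G07152, AT5G07160 and AT5G07170 and an 8.88-fold peak at AT5G40080, AT5G40090 and AT5G40100, both on chromosome 5.

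**Figure D2:**
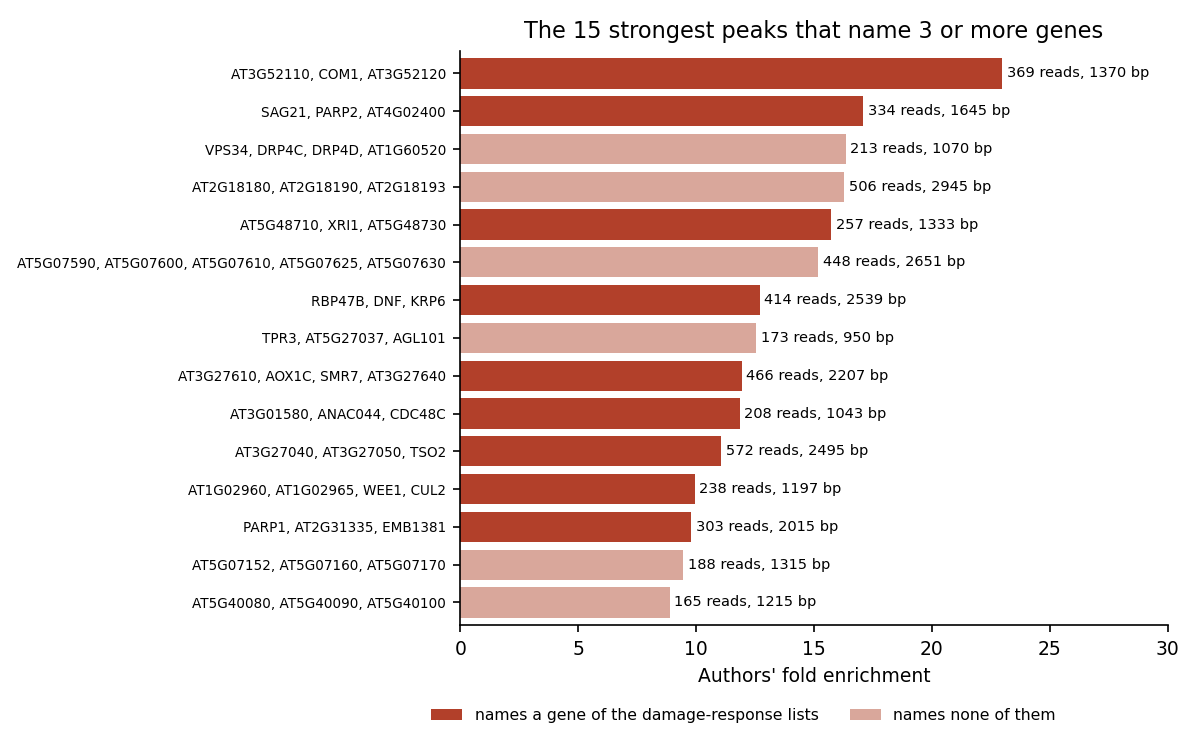
Fold enrichment (bars from 0) of the 15 strongest peaks with 3 or more genes, labelled with the genes named, reads and length. Dark bars name a gene of the damage-response lists and light bars none; COM1 leads with 23.0, and 6 of the bars are light, among them those at 16.3, 15.2 and 12.6.

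Reads and length differed little over the bulk of the peaks. Peaks with 3 or more genes held a median of 81 reads (73 to 86; range 43 to 572) over 867.5 bp (827 to 915; range 530 to 3767). Peaks with fewer genes held 74 reads (71 to 78; range 39 to 572) over 826 bp (799 to 856; range 472 to 3293). Scaled to length, the medians were 8.99 reads per 100 bp (8.83 to 9.23) and 8.78 (8.65 to 8.91). The intervals of the medians overlapped for each of the 3 measures. At least 200 reads were counted in 25 of 242 peaks with 3 or more genes (10.3%, 6.80 to 14.9) and in 41 of 536 with fewer (7.65%, 5.54 to 10.2).

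Among wide peaks, the median fold enrichment was higher where 3 or more genes were named. At lengths of 2000 bp or more there were 14 peaks with 3 or more genes and 25 with fewer. Their median fold enrichment was 7.20 (4.48 to 12.7) with 3 or more genes and 3.79 (3.13 to 4.94) with fewer, and 3 of 14 against 18 of 25 lay under 5-fold. The intervals of these medians overlap slightly. Damage-response genes were named at 4 of the 14. Without peaks naming listed genes, the medians were 5.53-fold (4.28 to 15.2, 10 peaks) and 3.71-fold (2.99 to 4.94, 24 peaks), and these intervals overlap. At lengths of 1500 bp or more, the medians were 5.45-fold (4.48 to 6.92, 30 peaks) and 4.06-fold (3.58 to 4.83, 53 peaks). Without peaks naming listed genes they were 5.09-fold (3.61 to 6.32, 24 peaks) and 4.03-fold (3.58 to 4.67, 51 peaks). The intervals overlap in both comparisons. Under 1000 bp the order turned round, with a median of 4.09-fold (3.99 to 4.25) in 161 peaks with 3 or more genes and 4.43-fold (4.24 to 4.46) in 377 with fewer. These intervals overlap slightly. At lengths of 2500 bp or more, the medians were 12.7-fold in 5 peaks with 3 or more genes, too few for an interval, and 3.86-fold (2.71 to 8.99) in 10 with fewer. All of these length limits were set with the values known.

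The 3 longest peaks with 3 or more genes named no listed gene. The longest, 3767 bp on chromosome 1 at 28586202 to 28589969 with 441 reads and 6.32-fold enrichment, named ERD14 (AT1G76180), a dehydrin that accumulates in drought and cold, and 3 further loci. The next, 3092 bp on chromosome 2 at 12936859 to 12939951 with 521 reads and 8.07-fold, named SIP4 (AT2G30360, also CIPK11), a kinase that works with calcium sensors, AT2G30350 and the noncoding RNA AT2G30362. The third was the 16.3-fold peak of AT2G18190 described above, at 2945 bp. Among shorter wide peaks, 2 genes are given that were picked after their names had been seen. OXI1 (AT3G25250, AGC2-1 in the gene table), a kinase that responds to reactive oxygen, was named at a 2026-bp peak of 5.71-fold on chromosome 3. PYL5 (AT5G05440), a receptor of abscisic acid, was named at a 2465-bp peak of 4.48-fold on chromosome 5.

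**Figure D3:**
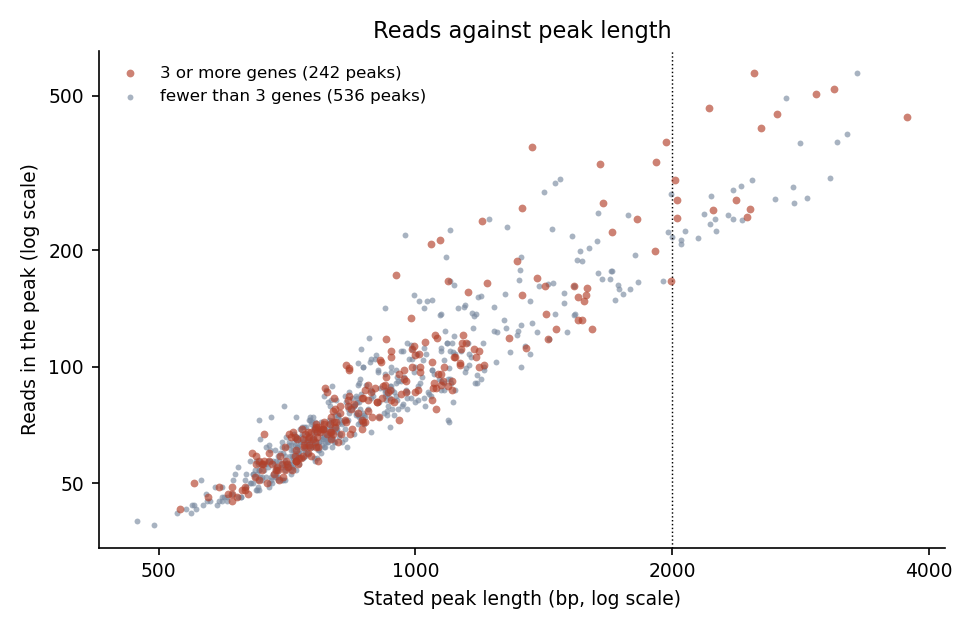
Reads in each peak against its stated length, both on log axes, for peaks with 3 or more genes (red) and with fewer (grey). Both classes share one band; right of the dotted line at 2000 bp, the 14 red points hold between 242 and 572 reads.

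The summit, the position of the highest signal in a peak, lay near the centre in both classes. Its offset from the peak's start had a median of 426 bp with 3 or more genes and 402 bp with fewer. As a share of the length, the medians were 0.527 (0.506 to 0.544) and 0.505 (0.495 to 0.518). The summit lay past the midpoint, towards higher coordinates, in 140 of 242 peaks with 3 or more genes (57.9%, 51.4 to 64.1) and in 281 of 536 with fewer (52.4%, 48.1 to 56.7). Peaks with exactly 2 genes were close to those with 3 or more, with a median share of 0.517 (0.501 to 0.529). Their summit lay past the midpoint in 170 of 302 (56.3%, 50.5 to 62.0). The summit lay in the outer 25% at either end in 14 peaks with 3 or more genes (5.79%) and in 29 with fewer (5.41%). Among peaks of 2000 bp or more these shares were 5 of 14 (35.7%, 12.8 to 64.9) and 9 of 25 (36.0%, 18.0 to 57.5). Under 1000 bp they were 3 of 161 (1.86%, 0.386 to 5.35) and 6 of 377 (1.59%, 0.586 to 3.43), so off-centre summits were more frequent among wide peaks in both classes. The TSO2 peak, with its summit 1974 bp into 2495 bp, and the AT2G18190 peak, with its summit 2457 bp into 2945 bp, were examples on the right, and OXI1, with its summit 298 bp into 2026 bp, on the left.

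**Figure D4:**
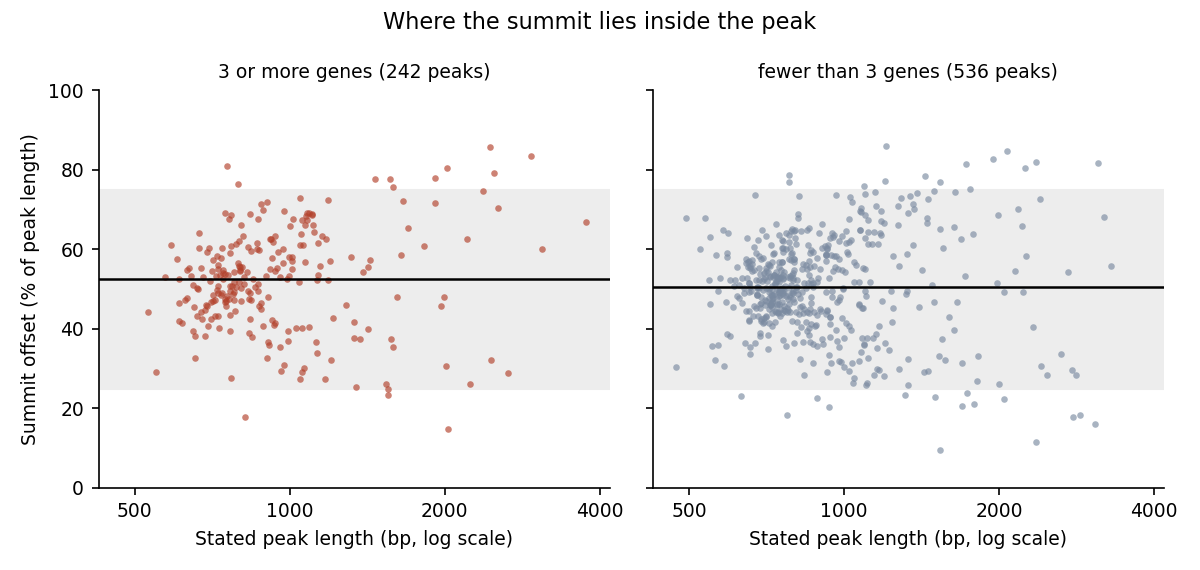
Summit offset as a percentage of the stated length, against length (log axis), for peaks with 3 or more genes (left) and with fewer (right). Lines mark the medians, 0.527 and 0.505 of the length, and the grey band spans 25% to 75%; points outside the band are 14 on the left and 29 on the right.

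Gene-dense positions were spread over all 5 chromosomes. Peaks with 3 or more genes were 64 of 197 on chromosome 1 (32.5%, 26.0 to 39.5), 42 of 115 on chromosome 2 (36.5%, 27.7 to 46.0), 55 of 153 on chromosome 3 (35.9%, 28.4 to 44.1), 34 of 118 on chromosome 4 (28.8%, 20.8 to 37.9) and 47 of 195 on chromosome 5 (24.1%, 18.3 to 30.7). Of 112 windows of 1 Mb with any peak, 96 held at least 1 such peak, with a median of 2 per window. The window from 2 to 3 Mb on chromosome 1 held the most, 8 of its 9 peaks. Among those 8 were SMR5, APX1 (AT1G07890), an ascorbate peroxidase that removes hydrogen peroxide, at 3.42-fold, and TIL1 (AT1G08260), the catalytic subunit of DNA polymerase epsilon, at 4.83-fold. Chromosome 3 had 6 of 8 peaks in its window from 0 to 1 Mb, which holds ANAC044, and 6 of 8 in that from 23 to 24 Mb.

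The most genes named for a peak were 6, at 2 peaks of modest strength. A 5.34-fold peak with 68 reads on chromosome 4, 17441273 to 17441990, named HSF4 (AT4G36990), a heat shock factor, the short upstream reading frame CPuORF49 (AT4G36988), ACD2 (AT4G37000), an enzyme of chlorophyll breakdown, CEN2 (AT4G37010), a centrin that takes part in nucleotide excision repair, AT4G36980 and AT4G37020. A 3.88-fold peak with 47 reads on chromosome 2, 8839539 to 8840175, named TIM44-1 (AT2G20510) and PHB6 (AT2G20530), proteins of mitochondria, FLA6 (AT2G20520), a cell surface protein, MEF21 (AT2G20540), an RNA editing factor, AT2G20500 and AT2G20515. The 11 peaks with 5 genes ran from 3.03-fold to 15.2-fold. One of them, with 240 reads and 8.75-fold on chromosome 2, 16528469 to 16530289, named BIK1 (AT2G39660), a kinase of immune signalling. Another, with 337 reads and 6.44-fold on chromosome 4, 16890565 to 16892480, named NTL9 (AT4G35580), a NAC factor held at membranes.

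At the weak end, the lowest fold enrichment was 2.52 with 162 reads, at AT3G10915, AT3G10930 and AT3G10950. It was followed by 2.57 with 111 reads at AT3G07450, AT3G07460 and AT3G07480, and by 2.67 with 118 reads at BTI2 (AT4G11220), a reticulon-like membrane protein, and a pair of leucine tRNA genes. The reads at these 3 peaks were above the class median of 81, and their lengths, 1535, 1132 and 1429 bp, were above the median of 867.5 bp. Under 3-fold there were 10 of 242 peaks with 3 or more genes (4.13%, 2.00 to 7.47) and 26 of 536 with fewer (4.85%, 3.19 to 7.03), where 4.63% of all peaks lay under it.

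Genes named for a peak were not always next to each other. Order could be read where the gene table held every named locus, at 217 of 242 peaks with 3 or more genes and 293 of 302 peaks with 2 genes. Among these, the loci were consecutive at 112 of 217 (51.6%, 44.8 to 58.4) and at 183 of 293 (62.5%, 56.6 to 68.0). No protein-coding gene was skipped at 150 of 217 (69.1%, 62.5 to 75.2) and at 226 of 293 (77.1%, 71.9 to 81.8). A peak with more genes has more gaps in which one can be skipped. At most 2 protein-coding genes were passed over at these peaks, and 4 at a peak with an unmatched locus, the 3.36-fold peak of BZIP53 (AT3G62420), a factor of the bZIP family, on chromosome 3, 23092598 to 23093725.

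Tandem families were found at a minority of the peaks. Loci of 1 peak whose symbols or synonyms share a name stem were counted as a family, which depends on how genes are named and misses families without a shared name. Such a family stood at 18 of 242 peaks with 3 or more genes (7.44%, 4.47 to 11.5), 4 of them tRNA pairs, and at 5 of 302 peaks with 2 genes (1.66%, 0.540 to 3.82). A peak with more genes has more chances to hold a family. Counted per pair of genes, 20 of 986 pairs at peaks with 3 or more genes shared a family (2.03%, 1.24 to 3.12), against 5 of 302 pairs at peaks with 2 genes (1.66%, 0.540 to 3.82). The intervals per pair overlap. The 18 peaks had a median of 4.07-fold (3.51 to 5.26) and the 224 peaks without a family one of 4.25-fold. Of the 18, 6 reached 5-fold.

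Families of stress and growth genes were among them. DRP4C and DRP4D, at 16.3-fold, were the strongest. By shared names, the only family of 3 was that of SAUR63 (AT1G29440), AT1G29450 and AT1G29460, small auxin-induced proteins that promote cell expansion. It stood at a 5.93-fold peak with 115 reads on chromosome 1, 10308660 to 10309794. Families of 3 without a shared name would have been missed. RCI2A and RCI2B (AT3G05880 and AT3G05890), small membrane proteins induced by cold, shared a 5.03-fold peak on chromosome 3. DREB1A and CBF1 (AT4G25480 and AT4G25490), transcription factors that turn on cold-response genes, shared a 4.53-fold peak with 62 reads on chromosome 4, 13023320 to 13024071. KCS17 and KCS18 (AT4G34510 and AT4G34520), enzymes that lengthen fatty acids, shared one of 4.99-fold on chromosome 4.

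Families tied to chromatin and to ADP-ribose were present too. HTR11 (AT5G65350) and AT5G65360, both histone H3 genes, shared a 5.54-fold peak with 199 reads on chromosome 5, 26119214 to 26121125. PARG1 (AT2G31870, TEJ in the gene table) and PARG2 (AT2G31865), glycohydrolases that take ADP-ribose chains off proteins and so oppose the PARP enzymes, shared a 3.88-fold peak with 96 reads on chromosome 2, 13553418 to 13554482. SOBIR1 (AT2G31880), an immune receptor kinase, was named at the same peak. The PARG peak was weaker than those of PARP2 at 17.1-fold and PARP1 at 9.79-fold.

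The remaining families lay between 2.67-fold and 5.55-fold. They were PP2-B genes of phloem-type lectins at 5.55-fold and, at the neighbouring peak, 3.51-fold, ARFD1A and ARFD1B, small GTPases, at 4.25-fold, and the cytochrome P450 genes CYP76C2 and CYP76C3 at 3.85-fold. The RING-finger genes RHA1A and RHA1B shared a 3.49-fold peak, the aldo-keto reductase genes AT2G37760 and AT2G37770 one of 3.45-fold, and the lectin receptor kinase genes AT5G60270 and AT5G60280 one of 3.09-fold. An alanine tRNA pair was named at neighbouring peaks of 5.26-fold and 3.67-fold, a phenylalanine pair at 3.60-fold and a leucine pair at 2.67-fold. As the alanine tRNA and PP2-B families each stood at a pair of neighbouring peaks, the 18 peaks held 16 different families.

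Genes other than protein-coding ones helped peaks to reach the threshold. Peaks with 3 or more genes named 772 different loci and peaks with fewer named 762. Protein-coding genes were 673 (87.2%, 84.6 to 89.5) and 717 (94.1%, 92.2 to 95.7). tRNA genes were 26 loci (3.37%, 2.21 to 4.90) and 8 loci (1.05%, 0.454 to 2.06). Long noncoding RNAs were 10 and 1, while 22 and 8 loci were not matched to the gene table. Pseudogenes were 32 (4.15%, 2.85 to 5.80) and 24 (3.15%, 2.03 to 4.65). The 24 peaks that named a tRNA gene had a median of 4.22-fold, from 2.67 to 15.2. The microRNA genes were MIR408, at 3.55-fold, MIR169a, at 3.58-fold, and MIR420, at 3.03-fold. With protein-coding loci alone, 185 of the 242 peaks still had at least 3 genes, 43 had 2 and 14 had 1. Every named locus counted towards the threshold, so these shares of gene classes are not independent of the rule that chose the peaks.

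**Figure D5:**
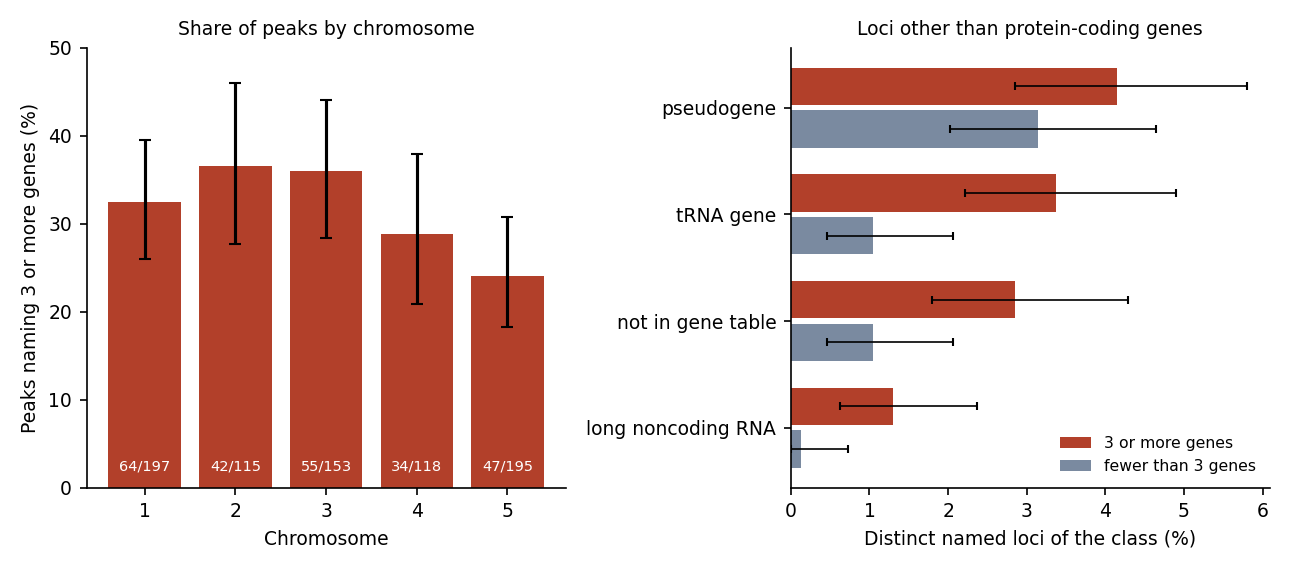
Left, share of each chromosome's peaks that name 3 or more genes, with exact 95% intervals and counts in the bars. Right, share of different named loci in each class other than protein-coding, at peaks with 3 or more genes (red) and with fewer (grey), with the same intervals; tRNA genes are 3.37% in red and 1.05% in grey.

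Some neighbouring peaks named the same genes. At least 1 gene was also named at another peak for 39 of 242 peaks with 3 or more genes (16.1%) and for 80 of 536 with fewer (14.9%). There were 26 such pairs of peaks that included one with 3 or more genes, and in 14 both had 3 or more. The gaps between them ran from 6 to 4602 bp, with a median of 582 bp. In 5 pairs both peaks named exactly the same genes. WRKY22 (AT4G01250), a factor of immune responses, had such a pair at 7.21-fold with 65 reads and 4.40-fold with 50 reads, 472 bp apart on chromosome 4. CML9 (AT3G51920, CAM9 in the gene table), a calmodulin-like calcium sensor, had one at 2.99-fold and 3.33-fold, 306 bp apart on chromosome 3. The 16.3-fold peak of AT2G18190 had a 5.55-fold neighbour 121 bp away, and the 15.7-fold XRI1 peak one of 5.53-fold 565 bp away with 286 reads.

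Genes of other stress responses were also named at peaks with 3 or more genes. The following were picked after the names had been seen, so no count is read from them. Among genes of DNA and chromatin, AGO2 (AT1G31280), an Argonaute protein of small RNA pathways, was named at 6.32-fold with 110 reads. RAD23C (AT3G02540), of the RAD23 family of nucleotide excision repair, was named at neighbouring peaks of 5.54-fold and 3.61-fold. DML3 (AT4G34060), a DNA demethylase, was named at 2.97-fold. Among drought and cold genes, DREB19 (AT2G38340), a factor of drought response, was named at 6.85-fold with 381 reads over 1969 bp. Among calcium sensors, CAM4 (AT1G66410), a calmodulin, was named at 5.93-fold with 79 reads. Among WRKY factors, TTG2 (AT2G37260), which acts in leaf hair formation, was named at 5.68-fold with 118 reads. HY5 (AT5G11260), a light-response factor, was named at 3.86-fold with 67 reads, and ELF4 (AT2G40080), a clock component, at 3.61-fold with 56 reads.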

How the data were processed

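Chromatin from 1 library of tagged, zeocin-treated plants and 1 of untagged plants was sequenced, and 1 peak list, of the tagged library, was analysed. CASAVA 1.8.2 and TAIR10 appear in the submitters' processing notes. Aligner, peak caller, control, thresholds and gene assignment rule: not given in the sources used here. Per the file headers, a peak's deposited values are its read count, fold enrichment (a ratio), Decibel Score (a score), FDR, and length and summit offset in bp. They are the authors' own values and were used only to describe and rank peaks within the list. How the FDR was computed is not stated. No peak was selected by FDR, which is 0.5 at the strongest peak and 1 at the TSO2 peak. The TSO2 peak ranks 1 by Decibel Score, so a high FDR in this list does not mark a weak peak. The lowest FDR of a peak with 3 or more genes is 0.118, at the DRP4C peak, which ranks 17 by that score.

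Positions are those of the list. Its 1645 lines were collapsed to 778 peaks. Of 1513 named loci, 1483 were matched by locus tag to a RefSeq gene table of TAIR10.1, which was used only for names, classes and gene order. The stated length equals end minus start, without the 1 added, at 85 peaks with 3 or more genes and 176 with fewer. Medians and exact 95% intervals were computed with Python 3.11.15, pandas 2.3.3 and SciPy 1.17.1, and the interval code was tested on simulated data. They cover counting error and the spread over peaks only. PCR copies among the reads are not independent molecules. With 1 library a group no test was run.

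The peaks and gene lists were chosen with earlier results of these data known. Genes were named by rule: the 15 strongest peaks, the peaks with most genes, families, listed genes, the 3 longest, the 3 with most reads, the 3 weakest and the 5 strongest without a listed gene. Genes at other peaks were named after their values had been seen. No sequence was used here.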

Additional observations from a re-analysis of the deposited data

How the results depend on the processing

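Of 47 recalculations of 9 values, 35 stayed within the spread of the original and 11 moved beyond it, while 1 reversed. The sign of the difference turned in 7. For a difference, that spread was the interval of the peaks with 3 or more genes less the point value of the other peaks. It leaves out the spread of the other peaks, so it understates the spread of the difference. The share of peaks with 3 or more genes, 31.1%, became 23.8% with protein-coding loci only and 44.5% with peaks of 2 genes as the only others, and 8.48% at a minimum of 4 genes. The direction of each of these changes in the share was fixed by the setting itself. At a minimum of 4 genes the difference in median length, 41.5 bp, reversed to -11 bp, and that in reads went to -1.5, against 7. The family share there was 13.6%, against 7.44%. Another setting kept only the stronger peaks down to the middle of the ranking, and so selected on fold enrichment itself. There the differences were 0.061 in fold enrichment (against -0.18), 19 reads, 115 bp, 0.71 reads per 100 bp (against 0.21) and 5.70 percentage points at 5-fold or more (against -1.31). Between the length quartiles the last was -7.20. Its sign also turned with protein-coding loci, to 1.16, with at least 4 genes, to 1.12, and with peaks within 1000 bp merged, to 0.099. Stricter settings leave fewer peaks; the cause was not tested further. The recalculation without upstream reading frames and unmatched loci (29.6%) and the ranking by Decibel Score were added after seeing the data. The planned CTT(N)7AAG and protein-similarity calculations were not run, as no sequence was used here. No paired analysis was possible because each group has 1 library and no test was run. The unknown depth limits every value: a peak's fold enrichment has no error, and a gene named at a peak with several genes need not be the one bound.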
